A study of Drosophila melanogaster with 52 samples.

Results

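Glutathione S-transferases (GSTs) of Drosophila melanogaster were followed through an RNA-Seq table of larval tissue as all rows whose symbol is Gst followed by the class letter D, E, S, T, O or Z and a number. This rule found 35 genes among the 16502 in the table: 11 of the delta class (GstD), 14 of the epsilon class (GstE), 4 of the theta class (GstT), 3 of the omega class (GstO), 2 of the zeta class (GstZ) and 1 of the sigma class (GstS1). The series asks how DNA-binding Polycomb group recruiters act, and its RNA-Seq compares mutants of such recruiters with wild type. The tissue was imaginal discs together with brains, dissected from larvae of the third instar, and poly(A) RNA was sequenced in 3 libraries of pho mutants (PhoKO), 4 of Spps mutants (SppsKO) and 3 of wild type (WT). Per the series' design, SppsKO larvae lacked both the maternal and the zygotic product of Spps, whereas PhoKO larvae lacked only the zygotic product of pho, so that maternal Pho may remain. The labels name no allele, strain, sex or age within the instar for these libraries, and all stocks were kept at the same temperature. Genotype and genetic background therefore cannot be told apart. The labels do not say whether replicate libraries had separate crosses or dissections behind them. All p-values refer to the spread among the libraries at hand, part of which may be technical.

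GSTs join the tripeptide glutathione to reactive or fat-soluble compounds, which makes those easier to export, and some members reduce peroxides. Insects have expanded the delta and epsilon classes into clusters of neighbouring genes that arose by duplication, and these classes are known for insecticide resistance and for induction by xenobiotics and oxidative stress. Part of that induction in the fly runs through the transcription factor cnc and its inhibitor Keap1. Pho binds DNA directly at Polycomb response elements. Spps, a zinc finger protein of the Sp1 and KLF family, binds at many of the same elements.

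Values are deposited FPKM, that is fragments scaled to transcript length and to library size, so levels can be set side by side between genes as well as between libraries. The targeted gene was lower in each mutant than in WT. Spps lay between 0.877 and 1.04 FPKM in SppsKO and between 12.2 and 12.9 FPKM in WT. The level of pho lay between 15.3 and 18.7 FPKM in PhoKO and between 53.7 and 67.8 FPKM in WT. Transcript of pho was thus still detected in PhoKO. Relative depth, with the first WT library as 100%, ran between 59.9% in WT library 3 and 106% in SppsKO library 3, and PhoKO library 1 was the other shallow one at 63.7%. Disc markers summed to between 246 and 297 FPKM in every library and brain markers to between 186 and 280 FPKM, so both labelled tissues were present. Markers of other tissues were present as well. The 11 hemocyte (blood cell) markers summed to 181 to 265 FPKM in PhoKO, 92.1 to 146 FPKM in SppsKO and 212 to 340 FPKM in WT. The 9 fat body markers summed to 783 to 4357 FPKM in PhoKO, 1367 to 2144 FPKM in SppsKO and 1315 to 5484 FPKM in WT, with Yp1 under 1 FPKM in all groups. The 11 gut and Malpighian tubule markers summed to 6.97 to 211 FPKM in PhoKO, 6.32 to 36.9 FPKM in SppsKO and 17.2 to 230 FPKM in WT, with Uro, Vha100-4 and Cyp6a8 under 1 FPKM in all groups. No listed marker was at 0 in every library of a group.

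The family was led by a few abundant genes, and the largest of them was GstD1, a delta-class enzyme best known for its action on DDT. GstD1 had 1153, 1280 and 1155 FPKM in the PhoKO libraries, 1028, 1032, 1068 and 1173 FPKM in the SppsKO libraries, and 1201, 1307 and 1195 FPKM in the WT libraries. Every SppsKO library thus lay below every WT library, while PhoKO and WT overlapped. Over the 10 libraries GstD1 averaged 1159 FPKM, which was 44.1% of the summed level of all 35 genes. GstS1, a sigma-class enzyme that acts on the lipid peroxidation product 4-hydroxynonenal, came next. It had 257, 323 and 337 FPKM in PhoKO, 369, 368, 399 and 411 FPKM in SppsKO and 375, 417 and 323 FPKM in WT. All PhoKO values lay below all SppsKO values, and both mutants overlapped WT. GstO3, an omega-class gene, followed with 213, 203 and 208 FPKM in PhoKO, 190, 206, 228 and 246 FPKM in SppsKO and 233, 254 and 189 FPKM in WT, where all groups overlapped. The summed level of the family was 2584 ± 79.7 FPKM in PhoKO (SD, n = 3), 2592 ± 153 FPKM in SppsKO (SD, n = 4) and 2713 ± 144 FPKM in WT (SD, n = 3), with overlapping libraries. Of the 35 genes, 18 averaged at least 10 FPKM.

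**Figure D1:**
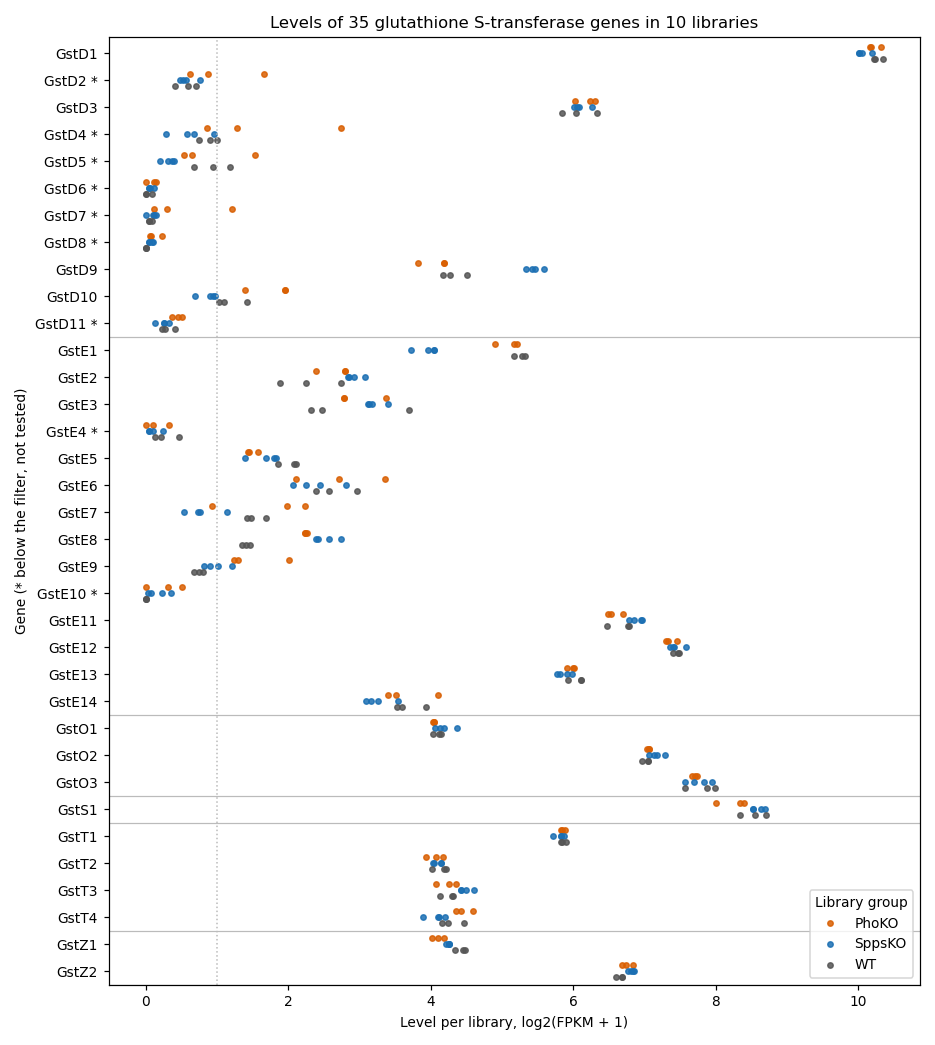
Level of each of the 35 GST genes on the horizontal axis as log2(FPKM + 1), 1 row per gene and 1 point per library, in PhoKO (orange), SppsKO (blue) and WT (grey). The dotted line is at 1 FPKM, and asterisks mark the 9 genes below the filter, all of them in the D and E clusters.

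The delta and epsilon genes sit in separate clusters, in each of which a few genes carried most of the level. Current RefSeq gene order puts the 11 GstD genes side by side on chromosome arm 3R, in the order GstD10, GstD9, GstD1, GstD2, GstD3, GstD4, GstD5, GstD6, GstD7, GstD8 and GstD11, with CG10035 between the last 2. It puts 10 GstE genes side by side on 2R, in the order GstE10, GstE1, GstE2, GstE3, GstE4, GstE5, GstE6, GstE7, GstE8 and GstE9, while GstE11 to GstE14 lie elsewhere on that arm. In the D cluster 3 genes averaged at least 10 FPKM: GstD1, GstD3 at 69.0 FPKM and GstD9 at 27.7 FPKM. In the E cluster only GstE1 did so, at 27.0 FPKM, and the next were GstE3 at 7.50 FPKM and GstE2 at 5.48 FPKM. The 4 GstE genes outside the cluster were higher, with GstE12 at 171 FPKM, GstE11 at 106 FPKM, GstE13 at 61.4 FPKM and GstE14 at 10.7 FPKM. GstE14, also named nobo, is needed for the synthesis of the steroid hormone ecdysone in the prothoracic gland.

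Differences between groups were tested with limma on log2(FPKM + 1), in 1 fit over all 10 libraries and the 9748 genes that had at least 1 FPKM in at least 3 libraries, and a gene was called at a Benjamini-Hochberg adjusted p under 0.05. Of the 35 members, 26 entered the test. The 9 others were GstD2, GstD4, GstD5, GstD6, GstD7, GstD8, GstD11, GstE4 and GstE10. A filter of this kind can admit a gene through the group where it is high: GstE9 was under 1 FPKM in all WT libraries, and GstD10 was under 1 FPKM in all SppsKO libraries. Fold changes on this scale understate the change of such low genes.

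In SppsKO against WT, GstD9 and GstE8 rose and GstE1 and GstZ1 fell. The members called were thus 2 higher and 2 lower of 26, where 3.92% of all tested genes were called higher and 4.26% lower. The median log2 fold change was -0.03 over the 26 members and 0.00 over the genes outside the family, and the median absolute value was 0.21 in the members against 0.09 in those other genes. In PhoKO against WT, GstE8 and GstE9 rose and GstE5 and GstZ1 fell. This again made 2 higher and 2 lower of 26, where 4.59% of all tested genes were called higher and 5.08% lower. GstE9, 1 of the 2 higher, had entered the test only through mutant libraries. The median was -0.01 in the members and 0.00 in the other genes, and the median absolute values were 0.11 and 0.09. Both comparisons use the same WT libraries. In PhoKO against SppsKO, GstE1, GstD10 and GstT4 were called higher and GstD9 and GstE11 lower, so 3 and 2 of 26, where 7.24% of all tested genes were called higher and 7.12% lower. The median was -0.06 in the members and -0.01 in the other genes, with median absolute values of 0.24 and 0.10. In all, 9 members were called at least once, and 17 tested members were called in none of the comparisons. The counts depended on the weighting of the libraries: with weights estimated by limma, 7 members were called in PhoKO against WT, where 22.3% of all tested genes were, 12 in SppsKO against WT, where 23.2% were, and 12 in PhoKO against SppsKO, where 28.4% were. The balance of directions depended on the scaling: quantile normalization gave 625 higher and 307 lower genes in SppsKO against WT, against 382 and 415 as deposited, and 523 higher and 819 lower in PhoKO against SppsKO, against 706 and 694. Among the members the split became 3 higher and 1 lower in SppsKO against WT and stayed at 3 and 2 in PhoKO against SppsKO.

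**Figure D2:**
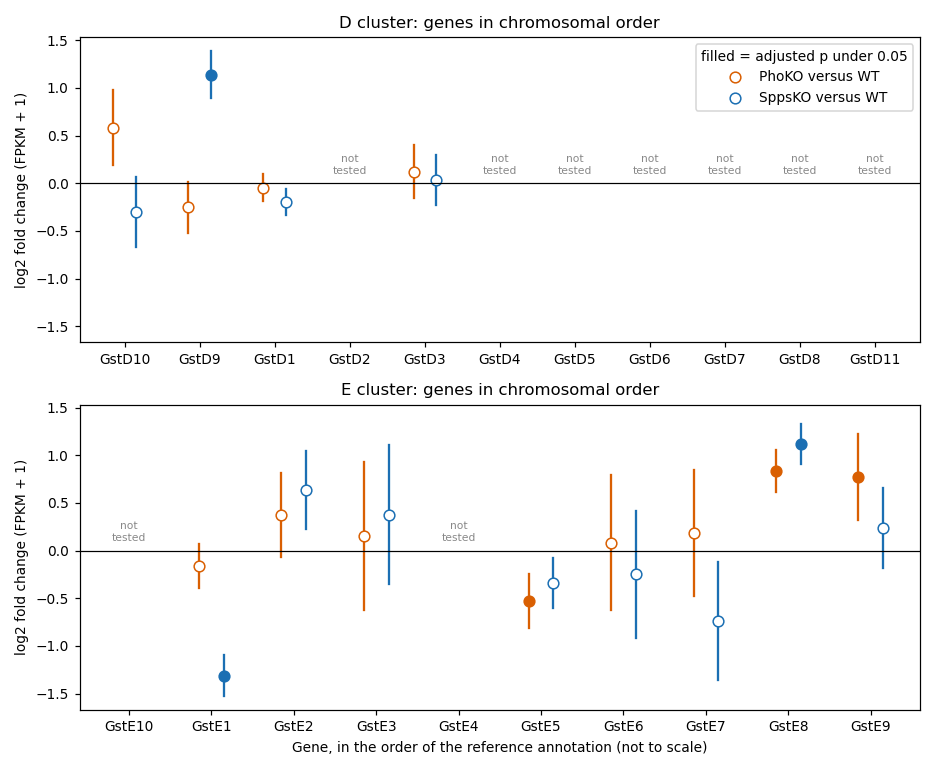
Log2 fold change against WT, on the log2(FPKM + 1) scale, with its 95% interval for each tested gene of the D cluster (top) and the E cluster (bottom), for PhoKO (orange) and SppsKO (blue). Filled points were called at an adjusted p under 0.05, and genes below the filter are marked as not tested. Genes stand in chromosomal order and not to scale, and neighbours such as GstD9 and GstD1, or GstE1 and GstE2, have unlike values in SppsKO.

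In the D cluster, GstD9 was the only gene called against WT. GstD9 had 17.3, 17.2 and 13.1 FPKM in PhoKO, 43.0, 42.0, 39.5 and 47.4 FPKM in SppsKO, and 18.3, 17.0 and 21.8 FPKM in WT. All SppsKO libraries stood above all others, and PhoKO and WT overlapped. The SppsKO mean was 2.26 times the WT mean, a log2 fold change of 1.14 (SE 0.11, limma adjusted p = 0.000242). PhoKO against WT gave -0.25 (SE 0.12, limma adjusted p = 0.233), and PhoKO against SppsKO gave -1.39 (SE 0.11, limma adjusted p = 6.32e-05), so the mutants differed in a direct test. Both calls held in all 21 alternative settings.

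Both genes next to GstD9 behaved otherwise. GstD10, at the edge of the cluster, had 2.87, 1.63 and 2.87 FPKM in PhoKO, 0.956, 0.936, 0.615 and 0.874 FPKM in SppsKO, and 1.14, 1.68 and 1.04 FPKM in WT. The PhoKO libraries all exceeded the SppsKO libraries, and SppsKO lay below WT without overlap. PhoKO against SppsKO was called, with a log2 fold change of 0.89 (SE 0.16, limma adjusted p = 0.00695). Against WT neither mutant was called, with 0.58 (SE 0.17, adjusted p = 0.0675) in PhoKO and -0.30 (SE 0.16, adjusted p = 0.293) in SppsKO. GstD1, on the other side of GstD9, gave -0.05 (SE 0.06, adjusted p = 0.732) in PhoKO and -0.20 (SE 0.06, adjusted p = 0.0730) in SppsKO. GstD1 was called in SppsKO when SppsKO library 4, its highest, was left out. GstD3 gave 0.12 (95% interval -0.16 to 0.40) in PhoKO and 0.03 (-0.23 to 0.29) in SppsKO.

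The other 7 genes of the D cluster were low, and a few single libraries stood out among them. GstD4 had 1.45, 5.68 and 0.825 FPKM in PhoKO, 0.221 to 0.937 FPKM in SppsKO and 0.685 to 0.998 FPKM in WT. GstD5 had 0.574, 1.90 and 0.457 FPKM in PhoKO, 0.147 to 0.314 FPKM in SppsKO and 0.602 to 1.28 FPKM in WT. PhoKO library 2 was thus the highest of all libraries for both genes, and the SppsKO values of GstD5 lay below all others. GstD2 reached 2.17 FPKM and GstD7 1.31 FPKM in PhoKO library 1, and neither passed 1 FPKM in any other library. GstD6, GstD8 and GstD11 stayed under 1 FPKM in all 10 libraries. With no filter on low values, none of the 9 members below the filter was called by limma, and the lowest adjusted p was 0.0849, for GstD11 in PhoKO against SppsKO.

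In the E cluster, GstE1 fell in SppsKO, GstE8 rose in both mutants, and GstE5 and GstE9 changed in PhoKO. GstE1 had 36.0, 35.2 and 28.9 FPKM in PhoKO, 12.3, 15.5, 14.6 and 15.6 FPKM in SppsKO and 38.0, 34.9 and 38.9 FPKM in WT. The SppsKO libraries lay below all others with a wide gap, and PhoKO overlapped WT. The SppsKO mean was 38.9% of the WT mean, with a log2 fold change of -1.31 (SE 0.10, limma adjusted p = 2.85e-05). PhoKO against WT gave -0.16 (SE 0.10, adjusted p = 0.393), and PhoKO against SppsKO gave 1.15 (SE 0.10, adjusted p = 7.17e-05). Both calls held in all 21 alternatives. GstE1 made up 53.6% ± 2.79 of the summed level of the cluster in PhoKO (SD, n = 3), 33.9% ± 2.09 in SppsKO (SD, n = 4) and 61.1% ± 3.98 in WT (SD, n = 3). The cluster summed to 62.3 ± 6.13 FPKM in PhoKO, 42.7 ± 4.90 FPKM in SppsKO and 61.0 ± 0.507 FPKM in WT. Without GstE1 the sums were 28.9 ± 3.15 FPKM in PhoKO, 28.3 ± 3.70 FPKM in SppsKO and 23.8 ± 2.64 FPKM in WT.

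GstE8 was the only member called higher in both mutants. It had 3.74, 3.71 and 3.81 FPKM in PhoKO, 4.36, 4.96, 4.23 and 5.69 FPKM in SppsKO and 1.66, 1.56 and 1.77 FPKM in WT. Every mutant library was above every WT library, and every SppsKO library was above every PhoKO library. The log2 fold change was 0.84 in PhoKO (SE 0.10, limma adjusted p = 0.000750) and 1.12 in SppsKO (SE 0.09, limma adjusted p = 7.12e-05), and both calls held in the 20 alternatives that gave a value. PhoKO against SppsKO was -0.28 (SE 0.09, adjusted p = 0.0710), which was not called, although it was under quantile normalization, with library weights and with neither the trended nor the robust variance prior.

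GstE9, next to GstE8, had 1.47, 3.05 and 1.36 FPKM in PhoKO, 1.33, 0.873, 1.02 and 0.763 FPKM in SppsKO and 0.755, 0.689 and 0.603 FPKM in WT. The PhoKO libraries exceeded the others, with library 2 far above its group, and SppsKO also lay above WT without overlap. PhoKO against WT was called with a log2 fold change of 0.77 (SE 0.20, limma adjusted p = 0.0400). This call was among the weakest: 7 of 20 alternatives kept it, and leaving out any library other than SppsKO library 4 or PhoKO library 3 ended it, with 0.52 without PhoKO library 2. SppsKO against WT gave 0.24 (SE 0.19, adjusted p = 0.484). GstE9 overlaps imd, which encodes an adaptor of an innate immune pathway, in current RefSeq, so the genes may share fragments. imd itself had 16.2 ± 1.40 FPKM in PhoKO (SD, n = 3), 15.7 ± 0.990 FPKM in SppsKO (SD, n = 4) and 16.9 ± 2.49 FPKM in WT (SD, n = 3), and was not called.

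GstE5 moved the other way. It had 1.98, 1.73 and 1.71 FPKM in PhoKO, 1.64, 2.47, 2.22 and 2.55 FPKM in SppsKO and 3.30, 3.25 and 2.64 FPKM in WT. All libraries of both mutants were below all WT libraries. It fell in PhoKO, by 0.53 on the log2 scale (SE 0.13, limma adjusted p = 0.0298), and gave -0.34 in SppsKO (SE 0.12, adjusted p = 0.114). The PhoKO call was kept in 13 of 20 alternatives and ended without PhoKO library 2 or 3, SppsKO library 3, or WT library 1 or 2.

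**Figure D3:**
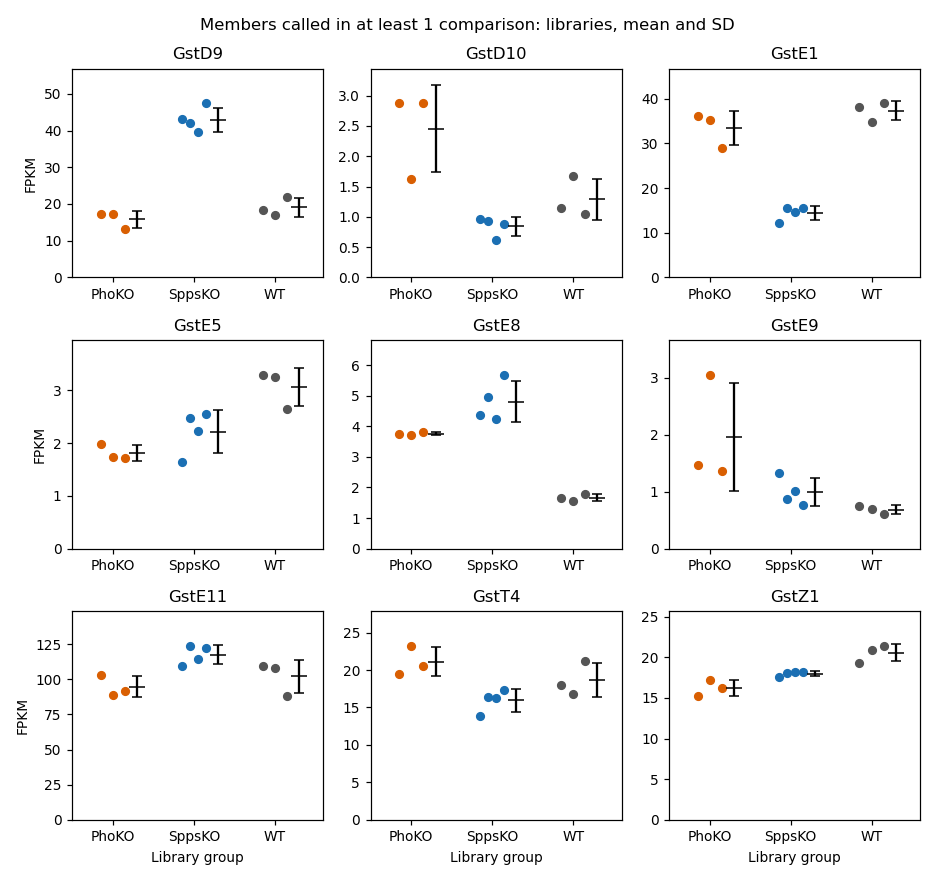
FPKM on a linear axis from 0 in every library of the 9 members called in at least 1 comparison, with the mean and SD of each group beside its points. The 4 SppsKO libraries stand alone for GstD9 and GstE1, and the WT libraries stand alone at the low end for GstE8.

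The remaining tested genes of the E cluster were not called. GstE2 had 4.26 to 5.98 FPKM in PhoKO, 6.17 to 7.42 FPKM in SppsKO and 2.68 to 5.70 FPKM in WT. The SppsKO values were the highest without overlap, with a log2 fold change against WT of 0.64 (SE 0.18, limma adjusted p = 0.0666) that was called without WT library 3. GstE7 had 3.70, 0.916 and 2.95 FPKM in PhoKO, 0.459 to 1.21 FPKM in SppsKO and 1.69 to 2.22 FPKM in WT. SppsKO lay below WT without overlap, at -0.74 (SE 0.28, adjusted p = 0.141), and PhoKO against SppsKO was 0.92 (SE 0.28, adjusted p = 0.0533). Both GstE7 differences were called when PhoKO library 2 was left out. GstE3 had 5.90 to 9.40 FPKM in PhoKO, 7.68 to 9.62 FPKM in SppsKO and 4.59, 12.0 and 4.01 FPKM in WT, where library 2 stood above all others. Its log2 fold change in SppsKO against WT was 0.38 (SE 0.32, adjusted p = 0.520), and 0.81 and called without WT library 2 (adjusted p = 0.0233). GstE6 ranged between 3.33 and 9.25 FPKM within PhoKO, 3.18 and 6.06 FPKM within SppsKO and 4.27 and 6.79 FPKM within WT. GstE4 and GstE10 stayed under 1 FPKM throughout, and GstE10 was listed at 0 in all WT libraries. GstE10 overlaps GstE1 in current RefSeq.

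Set gene by gene, each cluster thus held 1 gene that was called in SppsKO against WT and in PhoKO against SppsKO, GstD9 (highest in SppsKO) and GstE1 (lowest in SppsKO), while most neighbours were not called. Against WT, the D cluster had 1 of 4 tested genes called in SppsKO and 0 of 4 in PhoKO, where 1 (GstD10) was under an unadjusted limma p of 0.05. Without PhoKO library 2, GstD10 was called in PhoKO. The E cluster had 2 of 8 tested genes called in SppsKO and 3 of 8 in PhoKO. The 3 in PhoKO include GstE9, which passed the filter only through mutant libraries and kept its call in 7 of 20 alternatives. Of all tested genes, 8.18% were called in either direction in SppsKO against WT and 9.66% in PhoKO against WT. Of the genes beside or inside the clusters, 4 passed the filter, and Idgf5 and CG34402 were each called in 1 comparison while imd and Dp1 were called in none. Idgf5, a secreted chitinase-like growth factor gene next to GstE10, had 0.737 ± 0.418 FPKM in PhoKO (SD, n = 3), 0.188 ± 0.0525 FPKM in SppsKO (SD, n = 4) and 2.09 ± 1.15 FPKM in WT (SD, n = 3). It fell in SppsKO, by 1.32 on the log2 scale (SE 0.23, limma adjusted p = 0.00714), and gave -0.79 in PhoKO (SE 0.25, adjusted p = 0.0776). CG34402, beyond GstD11, gave -0.49 in SppsKO against WT (SE 0.13, adjusted p = 0.0558) and 0.65 in PhoKO against SppsKO (SE 0.13, adjusted p = 0.0123). Tim17a1, next to GstD10, and CG10035, inside the D cluster, were below the filter.

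Outside the clusters, the called changes were small. GstZ1, of the class that in mammals carries out a step of tyrosine breakdown, had 15.3, 17.2 and 16.2 FPKM in PhoKO, 17.5, 18.1, 18.2 and 18.1 FPKM in SppsKO and 19.4, 20.9 and 21.4 FPKM in WT. The groups did not overlap, with PhoKO lowest and WT highest. It fell in PhoKO, by 0.32 on the log2 scale (SE 0.05, limma adjusted p = 0.00403), in all 21 alternatives. It also fell in SppsKO, by 0.18 (SE 0.05, limma adjusted p = 0.0485), a call that 8 of 21 alternatives kept and that leaving out PhoKO library 3, any 1 SppsKO library, or WT library 2 or 3 ended. GstZ2, the other zeta-class gene, gave 0.10 in PhoKO (SE 0.05, adjusted p = 0.249) and 0.16 in SppsKO (SE 0.04, adjusted p = 0.0607), with both mutants above WT in every library.

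GstE11 had 103, 88.9 and 92.0 FPKM in PhoKO, 110, 124, 114 and 123 FPKM in SppsKO and 110, 108 and 88.4 FPKM in WT. PhoKO lay below SppsKO without overlap, with a log2 fold change of -0.31 (SE 0.08, limma adjusted p = 0.0344), and the call was kept in 13 of 21 alternatives. Leaving out PhoKO library 2 or 3, or SppsKO library 2, 3 or 4, ended it. The theta-class gene GstT4 had 19.5, 23.3 and 20.5 FPKM in PhoKO, 13.8, 16.4, 16.2 and 17.4 FPKM in SppsKO and 18.0, 16.8 and 21.2 FPKM in WT. PhoKO stood above SppsKO without overlap, at 0.38 (SE 0.10, limma adjusted p = 0.0271), and 16 of 21 alternatives kept the call, which ended without PhoKO library 2 or 3 or without SppsKO library 1, 2 or 3. Neither gene was called against WT. None of the 3 GstO genes was called in any comparison, with log2 fold changes between -0.15 and 0.14, and GstS1 gave -0.28 in PhoKO (SE 0.11, adjusted p = 0.171) and 0.06 in SppsKO (SE 0.11, adjusted p = 0.760). GstT1, GstT2 and GstT3 were not called either, and neither were GstE12, GstE13 and GstE14. GstE14 had 9.60 to 16.3 FPKM in PhoKO, 7.50 to 10.7 FPKM in SppsKO and 10.6 to 14.2 FPKM in WT, and all groups overlapped. It gave -0.43 in SppsKO against WT (SE 0.18, limma adjusted p = 0.192) and 0.41 in PhoKO against SppsKO (SE 0.18, limma adjusted p = 0.162). PhoKO against WT gave -0.01 (SE 0.19, limma adjusted p = 0.978). The first 2 were called with library weights.

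**Figure D4:**
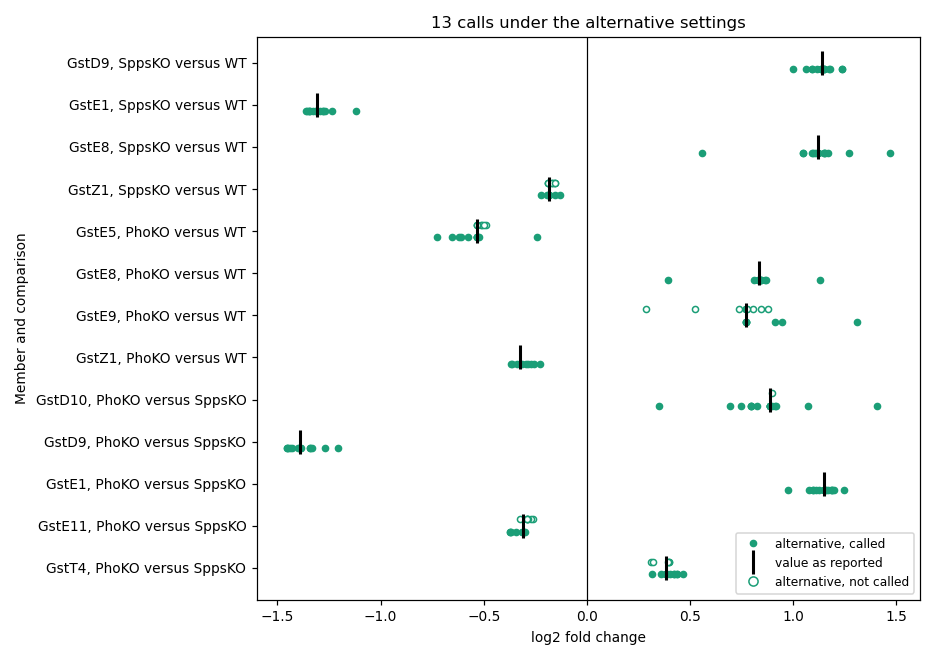
Log2 fold change of each of the 13 calls as reported (black bar) and under the alternative settings (filled where still called, open where not). The values of GstD9, GstE1 and GstE8 stayed far from 0 on the same side, whereas GstZ1 in SppsKO and GstE9 in PhoKO lost their call in most settings.

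Of 11 hemocyte markers, 6 were called lower and 0 higher in SppsKO against WT. They had 1 higher and 0 lower in PhoKO against WT, and 7 higher and 0 lower in PhoKO against SppsKO. Of all tested genes, 4.26% were called lower in SppsKO against WT and 7.24% higher in PhoKO against SppsKO. In whole tissue, fewer cells of a type and less RNA per cell cannot be told apart. Among the GST genes, GstE1, GstD10 and GstT4 were called higher in PhoKO than in SppsKO, and GstD9 and GstE11 lower. Of the 8 tested fat body markers and of the 6 tested gut and Malpighian tubule markers, none was called against WT and 1 each was higher in PhoKO than in SppsKO. The 9 muscle markers, at 542 to 1132 FPKM in PhoKO, 422 to 555 FPKM in SppsKO and 654 to 689 FPKM in WT in sum, and the 4 tracheal markers had no calls. The 8 salivary gland markers varied widely within groups, with sums of 81.4 to 1537 FPKM in PhoKO, 285 to 3027 FPKM in SppsKO and 829 to 6350 FPKM in WT, and 1 of them was called lower in PhoKO against WT and against SppsKO. Of the 9722 tested genes outside the GST family, 4833 had a log2 fold change below 0 in SppsKO against WT. Markers of a tissue can move together between libraries, so their signs are not separate observations. Called or not, 9 of 9 muscle, 8 of 8 salivary gland and 6 of 6 tested gut markers were below 0 in SppsKO against WT. So were 7 of 8 fat body, 9 of 11 hemocyte, 1 of 4 tracheal, 3 of 7 disc and 4 of 7 brain markers. Of the 7 disc markers, 1 was called higher and 1 lower in SppsKO against WT, where 8.18% of all tested genes were called. In PhoKO against SppsKO 2 were higher and 1 lower, where 14.4% of all tested genes were called, and in PhoKO against WT none was. Of the 7 brain markers, 1 was higher in PhoKO against WT, where 9.66% were called, 1 was higher in PhoKO against SppsKO, and none was called in SppsKO against WT. The part of hemocytes or of any other tissue in these values was not tested.

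Other genes that work with glutathione or share the GST fold were taken from lists chosen with earlier results of these data known, and some of these lists overlap. For these lists and the enzyme lists that follow, the shares called over all tested genes were 4.59% higher and 5.08% lower in PhoKO against WT. They were 3.92% and 4.26% in SppsKO against WT, and 7.24% and 7.12% in PhoKO against SppsKO. Of 19 tested genes for glutathione synthesis and redox defence, 0 were higher and 1 lower in PhoKO against WT, 1 higher and 0 lower in SppsKO against WT, and 0 higher and 5 lower in PhoKO against SppsKO. Gclc, the catalytic subunit of the rate-limiting enzyme of glutathione synthesis, averaged 9.46 ± 0.345 FPKM in PhoKO (SD, n = 3), 11.9 ± 0.516 FPKM in SppsKO (SD, n = 4) and 12.4 ± 1.62 FPKM in WT (SD, n = 3). It fell in PhoKO, by 0.35 on the log2 scale (SE 0.08, limma adjusted p = 0.0246). Prx2540-2, a peroxiredoxin, averaged 0.743 ± 0.363 FPKM in PhoKO, 3.37 ± 1.27 FPKM in SppsKO and 0.336 ± 0.185 FPKM in WT. It rose in SppsKO with a log2 fold change of 1.68 (SE 0.22, limma adjusted p = 0.00154), and its near-identical neighbours make its value uncertain. Prx2540-2, the 1 gene of this list called higher in SppsKO, was under 1 FPKM in all WT libraries. It had thus entered the test only through mutant libraries. Trx-2 and Trxr-1 of the thioredoxin system were lower in PhoKO than in SppsKO by small amounts, with log2 fold changes of -0.17 each (limma adjusted p = 0.0175 for Trx-2 and 0.0260 for Trxr-1).

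Of 9 tested genes of the cnc and Keap1 pathway, 1 was higher and 1 lower in PhoKO, and 1 was higher and 0 lower in SppsKO, while Gclc and Trxr-1 made 2 lower in PhoKO against SppsKO. The calls against WT were Gclc and Mgstl, the microsomal glutathione S-transferase, which is a membrane enzyme unrelated in fold to the 35 members. Mgstl averaged 35.9 ± 2.87 FPKM in PhoKO (SD, n = 3), 40.1 ± 0.963 FPKM in SppsKO (SD, n = 4) and 27.2 ± 0.371 FPKM in WT (SD, n = 3). It rose in PhoKO with a log2 fold change of 0.39 (SE 0.05, limma adjusted p = 0.00185) and in SppsKO with 0.55 (SE 0.05, limma adjusted p = 0.000139). Clic, a chloride intracellular channel protein with a GST fold, also rose in both, with 0.27 (SE 0.04, adjusted p = 0.00251) in PhoKO and 0.29 (SE 0.04, adjusted p = 0.00122) in SppsKO. The other tested genes of that list, gfzf, Ef1gamma and CG30185, were not called.

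Among enzymes that act beside GSTs in detoxification, cytochrome P450 genes had 5 higher and 5 lower of 29 tested in PhoKO against WT, 1 higher and 4 lower in SppsKO against WT, and 9 higher and 3 lower in PhoKO against SppsKO. Of all tested genes, 9.66%, 8.18% and 14.4% were called in either direction in these comparisons, in the same order. Cyp6a17 averaged 13.7 ± 5.37 FPKM in PhoKO (SD, n = 3), 3.55 ± 0.413 FPKM in SppsKO (SD, n = 4) and 0.062 ± 0.065 FPKM in WT (SD, n = 3), and rose in both. All WT libraries were under 1 FPKM for Cyp6a17, which had thus entered the test only through mutant libraries. It was the 1 gene of this list called higher in SppsKO against WT. Cyp4p2 averaged 16.6 ± 9.83 FPKM in PhoKO, 0.112 ± 0.122 FPKM in SppsKO and 84.1 ± 8.39 FPKM in WT, and fell in both. Both have close copies nearby, Cyp6a23 and Cyp4p1, so their fragments may be shared. Cyp9c1 averaged 23.9 ± 0.290 FPKM in PhoKO, 15.6 ± 1.33 FPKM in SppsKO and 14.6 ± 1.77 FPKM in WT, and rose in PhoKO, by 0.68 on the log2 scale (SE 0.09, limma adjusted p = 0.00111). Of 6 tested UDP-glycosyltransferase genes, which join sugars to fat-soluble compounds, Ugt86Di alone was called. It averaged 12.6 ± 1.16 FPKM in PhoKO, 11.4 ± 1.72 FPKM in SppsKO and 6.01 ± 2.18 FPKM in WT, and rose in both, with log2 fold changes of 1.00 (SE 0.20, limma adjusted p = 0.0145) in PhoKO and 0.86 (SE 0.19, limma adjusted p = 0.0233) in SppsKO.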

How the data were processed

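FPKM values per gene were taken as the authors deposited them, normalized across libraries. Per the submitters' processing notes, the series used TopHat2 2.1.1, Cufflinks, Cuffnorm, HTSeq and DESeq2 among other tools, and the builds BDGP5 and dm3. The sources used here do not state which step made each value, the annotation release or whether fragments were assigned by strand, so similar or overlapping genes may share fragments. Per the labels, libraries were stranded and held 100-base paired reads, but FPKM is not a count and gives no total, so relative depth was read from the steps among values under 0.3 FPKM. The 42 ChIP-Seq samples were not analysed here. Values were taken as log2(FPKM + 1), and genes with at least 1 FPKM in at least 3 libraries entered a linear model without covariates, fitted in R 4.3.3 by limma 3.58.1 with a robust, trended variance prior (tested on simulated data). Benjamini-Hochberg adjustment ran over all 9748 genes of a comparison. Each result was repeated under 21 alternatives. Values in every library are given for members called in any comparison and for the 3 most abundant, and for other lists up to 4 called genes per comparison were eligible for naming, in order of adjusted p. GstE2, GstE3, GstE7 and the low GstD genes with values per library were chosen after their values were seen. The members and lists were chosen with earlier results of these data known. RefSeq (Release 6 plus ISO1 MT, another build) gave gene names and order only, and all 35 symbols matched.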

Additional observations from a re-analysis of the deposited data

How the results depend on the processing

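Of 13 calls, 7 were kept in every alternative that gave a value: GstD9, GstE1 and GstE8 in SppsKO against WT, GstE8 and GstZ1 in PhoKO against WT, and GstD9 and GstE1 in PhoKO against SppsKO. The other 6 lost their call in some settings without a change of sign. In all, 221 alternative values of called members kept the call and 47 did not; of the others, 1271 stayed as they were, 41 (from 21 fold changes) became calls and 43 (from 15 fold changes) changed sign. The cause was not tested, except that a filter at a mean of 5 FPKM tests fewer genes. It leaves out GstD10, GstE5, GstE8 and GstE9, with means of 1.46, 2.35, 3.55 and 1.19 FPKM. Their calls therefore drop from the counts below by design, which says nothing on how firm they are. GstZ1 in SppsKO against WT was tested with that filter and not called.

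The count of GST genes called in SppsKO against WT, 4 as reported, was 2 with the filter at a mean of 5 FPKM and 12 with library weights (limma arrayWeights). In PhoKO against WT, 4 as reported, it was 1 with that filter, 2 in a fit of only the 2 compared groups, 7 with weights, and 2 to 4 when each library was left out (2 without WT 1, WT 2 or SppsKO 3). In PhoKO against SppsKO, 5 as reported, it was 12 with weights and 3 to 7 when each library was left out (3 without SppsKO 2 or SppsKO 3). For GstD genes the counts in SppsKO against WT, 1 as reported, were 2 with weights and 1 to 2 when each library was left out (2 without SppsKO 4). In PhoKO against WT, 0 as reported, they were 0 to 1 when each library was left out (1 without PhoKO 2), and in PhoKO against SppsKO, 2 as reported, 1 with the filter. For GstE genes in SppsKO against WT, 2 as reported, there was 1 with the filter and there were 7 with weights. In PhoKO against WT, 3 as reported, there were 0 with the filter, 1 with only the 2 compared groups, 5 with weights and 1 to 3 when each library was left out (1 without PhoKO 2, SppsKO 3, WT 1 or WT 2). In PhoKO against SppsKO, 2 as reported, there were 1 with no filter, 5 with weights and 1 to 2 when each library was left out (1 without PhoKO 3, SppsKO 2, SppsKO 3 or SppsKO 4).

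Replicate numbers did not pair the libraries: over 9 pairs with the same number, deviations from the group means correlated between -0.38 and 0.11, and 0 of 10 libraries correlated best with its own number. With the replicate number as a block, GST genes called were 2 in PhoKO against WT and 3 in PhoKO against SppsKO. GstD genes called were 2 in SppsKO against WT and 1 in PhoKO against SppsKO, and GstE genes called were 1 in PhoKO against WT and 1 in PhoKO against SppsKO. GstD10 in PhoKO against SppsKO lost its call only there (adjusted p = 0.0539, range over alternatives 0.00253 to 0.0539). Over all genes, called in 797, 942 and 1400 cases for SppsKO against WT, PhoKO against WT and PhoKO against SppsKO, the block gave 449 in the first and 753 in the last, weights gave 2263, 2178 and 2764, and a fit of only the compared groups gave 471 in PhoKO against WT. Of single libraries left out, SppsKO 2 moved the first count to 508, PhoKO 2 and WT 1 moved the second to 593 and 566, and PhoKO 1, PhoKO 2 and SppsKO 2 moved the last to 860, 872 and 848.

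Without both shallow libraries, WT 3 and PhoKO 1, a setting chosen after seeing the data, 4 GST genes were called in SppsKO against WT, 4 in PhoKO against WT and 5 in PhoKO against SppsKO. In that setting the log2 fold change changed sign for uncalled genes: in PhoKO against WT GstE3 gave -0.00746, GstE6 -0.27, GstE7 -0.12, GstO2 -0.0028 and GstT3 0.0047, and in SppsKO against WT GstS1 gave -0.0336. With weights, PhoKO against WT gave GstD1 0.0210, GstE6 -0.22, GstE7 -0.15 and GstO2 -0.000633. With quantile normalization, PhoKO against WT gave GstE14 0.0076 and GstT1 0.0102, SppsKO against WT gave GstT2 0.0015, and PhoKO against SppsKO gave GstO3 0.0110. With the block, GstD3 in SppsKO against WT gave -0.0226 and GstO3 in PhoKO against SppsKO 0.0042. Leaving out SppsKO library 4 gave the same values. Leaving out each library, the ranges that crossed 0 in SppsKO against WT were -0.0822 to 0.16 for GstD3, -0.0578 to 0.0174 for GstE12, -0.17 to 0.0409 for GstO3 and -0.0336 to 0.15 for GstS1. In PhoKO against WT they were -0.23 to 0.12 for GstE14, -0.11 to 0.58 for GstE3, -0.23 to 0.39 for GstE6, -0.0713 to 0.58 for GstE7, -0.0239 to 0.0176 for GstT1 and -0.0768 to 0.0633 for GstT3. In PhoKO against SppsKO they were -0.12 to 0.0042 for GstO3 and -0.0879 to 0.0329 for GstT2. The median of all genes moved by under 0.1 on the log2 scale under either scaling.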
